A study of Mus musculus with 14 samples.

Results

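The keratin genes encode the intermediate filament proteins of epithelial cells, and they were followed here through the open chromatin of 4T1 cells, a mouse mammary tumor cell line. Members were taken from the mouse annotation by symbol: every protein-coding gene named Krt and a number, with the keratin-associated proteins left out. This gave 51 of the 22380 protein-coding genes, 27 in the cluster on chromosome 11 and 24 in the cluster on chromosome 15. Accessibility was read from peaks within 10 kb of a keratin gene body, which formed 53 of the 108795 regions of the whole series once overlapping or touching peaks had been merged over the lists.

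Bulk ATAC-seq, in which a transposase inserts adapters into accessible DNA, had been run on 14 samples of fixed 4T1 cells. They formed 7 groups of 2 replicates, namely a normoxic culture and 6 hypoxic ones, which spent 6, 12 or 24 h, or else 36, 48 or 72 h, in 1% oxygen. The labels mark all 14 samples as made without an antibody and name no transgene or drug, the cell line was the same in all groups, and the labels do not say whether replicates came from separate cultures. The labels of the normoxic samples give no oxygen level, and their treatment text is the one for 1% oxygen. Control cells of this line in the study's flow cytometry were kept at 5% oxygen, and no source used here states that level for the normoxic ATAC-seq samples themselves. The authors had pooled both replicates of a group before calling peaks. Each group is therefore 1 list of peaks, no value below has a replicate error, and no test between conditions could be made. In bulk cells, a site that is open in fewer cells and a site that is less open in each cell cannot be told apart.

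Keratins work in pairs. A type I (acidic) and a type II (basic) keratin assemble into a heterodimer, and the filaments built from such pairs run from desmosomes and hemidesmosomes through the cytoplasm and carry mechanical load. The type I genes lie on mouse chromosome 11 and the type II genes on chromosome 15, with Krt18, a type I gene beside its type II partner Krt8, as the exception. Which pair a cell makes marks its kind: Krt8 with Krt18 in simple epithelia, including the luminal cells of the mammary gland, Krt5 with Krt14 in basal cells, Krt1 with Krt10 in the suprabasal epidermis, and many others in hair follicles.

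The 7 lists held from 49006 peaks at 6 h to 81732 at 12 h, with 60070 in normoxia. The value given for a peak is its fold enrichment, the ratio of reads at the summit to the local background within the same list. The summit is the highest point of the peak, and a read is added to both terms before division. The added read weighs more where the background is low. The total reads of each list are unknown here. Whole reads at each summit were recovered from the deposited fold and p-value, and in regions found in all 7 lists the median summit had 26 reads in normoxia, while the hypoxia lists had 31 to 52. The genome background was 0.926 reads in normoxia and between 1.85 and 3.25 under hypoxia. The smallest summit called had 5 reads in normoxia, 11 at 6 h and 7 to 9 in the other hypoxia lists, so the lists did not reach equally far down. The label of an epithelial line was compared with promoter peaks, a promoter being the 1 kb to either side of a transcript start in the annotation. Epcam, Cdh1, Cldn4 and Esrp1, 4 of 5 epithelial markers, had one in all 7 lists, and Cldn7 had none. Of 11 fibroblast, endothelial and immune markers, Pdgfra had a promoter peak in all 7 lists, Col1a1 in the 5 lists from 12 h on, Pecam1 in 3 lists and Lyz2 at 36 h alone, and the other 7 (Dcn, Lum, Cdh5, Tek, Ptprc, Cd3e and Cd79a) had none. Within 10 kb of the gene body, however, Cdh5, Tek, Ptprc and Cd79a had a peak in all 7 lists. Cldn7 and Dcn had one there in 5 lists, Lum in 3 and Cd3e in 1.

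The sequences under the leading keratin peaks are shown first, since the values that follow refer to them. In each class of keratins, sorted by the tissue where the protein is usually found, the region of all 7 lists with the highest median fold is given as 151 bases around its summit, or less where bases of an untranslated region were left out. All are on NCBIM37, the assembly of mm9, and run 5′ to 3′ on the strand of the keratin gene. Capitals mark short motifs found on either strand: TGANTCA for AP-1, GGGCGG for SP/KLF factors, ACGTG or GCGTG for HIF, GGAATG for TEAD and TGTGGT for RUNX. The Krt16 promoter carried 2 AP-1 motifs, one of which overlapped a HIF motif, and the Krt31 region also carried 2. A match is a description of the letters and not a bound site.
Krt16 promoter, chr11:100110483-100110633, minus strand: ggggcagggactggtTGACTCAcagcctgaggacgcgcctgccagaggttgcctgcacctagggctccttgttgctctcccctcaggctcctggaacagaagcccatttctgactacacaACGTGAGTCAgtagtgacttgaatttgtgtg
Krt31, upstream region, chr11:99917109-99917259, minus strand: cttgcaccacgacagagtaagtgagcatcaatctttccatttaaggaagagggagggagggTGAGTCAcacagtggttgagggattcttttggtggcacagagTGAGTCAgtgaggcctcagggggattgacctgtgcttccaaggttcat
Krt13, downstream region, chr11:99975061-99975211, minus strand: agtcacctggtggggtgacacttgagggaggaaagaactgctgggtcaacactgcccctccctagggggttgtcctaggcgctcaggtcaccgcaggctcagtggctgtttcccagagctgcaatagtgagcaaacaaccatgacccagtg
Krt26, upstream region, chr11:99203249-99203399, minus strand: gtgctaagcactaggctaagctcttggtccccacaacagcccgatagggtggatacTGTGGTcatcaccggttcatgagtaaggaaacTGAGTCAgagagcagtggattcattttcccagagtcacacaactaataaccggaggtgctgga
Krt19 promoter, chr11:100007435-100007497, minus strand: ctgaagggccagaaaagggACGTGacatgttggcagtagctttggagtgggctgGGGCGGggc
Krt14 promoter, chr11:100068913-100069063, minus strand: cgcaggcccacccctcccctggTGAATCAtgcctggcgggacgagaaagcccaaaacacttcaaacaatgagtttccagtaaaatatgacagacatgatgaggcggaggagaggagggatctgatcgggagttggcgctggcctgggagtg
Krt42, upstream region, chr11:100139411-100139561, minus strand: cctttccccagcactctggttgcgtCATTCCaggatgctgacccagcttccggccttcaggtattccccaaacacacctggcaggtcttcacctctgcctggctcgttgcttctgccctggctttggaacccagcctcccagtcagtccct
Krt80, upstream region, chr15:101204039-101204189, minus strand: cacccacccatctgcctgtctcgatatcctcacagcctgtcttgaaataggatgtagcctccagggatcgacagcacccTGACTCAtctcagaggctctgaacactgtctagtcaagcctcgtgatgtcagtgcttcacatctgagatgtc

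Also shown are the promoters of the Krt8 and Krt18 pair, chosen after their values were seen because they are the simple epithelial pair, and the leading regions that differed between the lists. The first of these, upstream of Krt19, and the next, upstream of Krt75, had peaks in hypoxia lists and none in normoxia. The Krt72-ps region was highest in normoxia and found in 1 other list. The Krt10 region, in an exon of that gene, was chosen after its values were seen.
Krt8 promoter, chr15:101834774-101834904, minus strand: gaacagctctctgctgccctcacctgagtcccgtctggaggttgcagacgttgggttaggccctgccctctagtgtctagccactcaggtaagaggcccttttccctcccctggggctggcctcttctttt
Krt18 promoter, chr15:101858556-101858646, plus strand: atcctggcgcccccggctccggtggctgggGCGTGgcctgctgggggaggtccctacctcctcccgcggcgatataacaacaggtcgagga
Krt19, far upstream region, chr11:100016919-100017069, minus strand: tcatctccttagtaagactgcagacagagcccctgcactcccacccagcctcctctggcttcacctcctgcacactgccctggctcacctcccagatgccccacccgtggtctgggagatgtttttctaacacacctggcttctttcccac
Krt75, upstream region, chr15:101413715-101413865, minus strand: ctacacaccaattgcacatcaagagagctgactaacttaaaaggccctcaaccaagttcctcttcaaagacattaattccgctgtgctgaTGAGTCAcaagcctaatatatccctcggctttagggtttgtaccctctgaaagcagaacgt
Krt72-ps, region within 10 kb, chr15:101603230-101603380, minus strand: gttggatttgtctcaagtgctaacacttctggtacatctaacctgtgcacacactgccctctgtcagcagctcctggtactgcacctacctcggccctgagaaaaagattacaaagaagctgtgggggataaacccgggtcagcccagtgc
Krt10, exonic region, chr11:99247283-99247433, minus strand: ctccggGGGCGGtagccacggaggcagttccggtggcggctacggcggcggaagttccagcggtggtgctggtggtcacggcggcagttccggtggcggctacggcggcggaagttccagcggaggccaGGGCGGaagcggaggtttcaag

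Most keratin promoters had no peak. A promoter peak was found in all 7 lists at 8 members: Krt13, Krt14, Krt16 and Krt19 on chromosome 11 and Krt7, Krt8, Krt18 and Krt80 on chromosome 15. Another 2, Krt32 and Krt86, had one in 2 lists each, and 41 had none. When a −log10 q of at least 5 was required, 5 of the 8 kept a promoter peak in every list, and Krt7, Krt8 and Krt18 did not. Among the 20000 strongest peaks of each list, Krt16 alone did. No share of all protein-coding genes is given for these stricter settings. The 8 members are 15.7% of 51, while among all protein-coding genes the share was 46.6%. The 41 without one are 80.4% of the members, against 42.4% of all protein-coding genes.

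List by list, 8 to 10 keratin promoters had a peak. In normoxia there were 9 members (17.6%) where 51.0% of all protein-coding genes had one. The hypoxia lists held 8 at 6 h (15.7%, against 49.7%), 10 at 12 h (19.6%, against 54.3%) and 8 at 24 h (15.7%, against 52.6%). They held 8 again at 36 h (15.7%, against 52.5%), 9 at 48 h (17.6%, against 53.0%) and 8 at 72 h (15.7%, against 51.0%). The share of keratin promoters thus lay under the share of all promoters in each list, and the counts differed by no more than the 2 members Krt32 and Krt86.

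**Figure D1:**
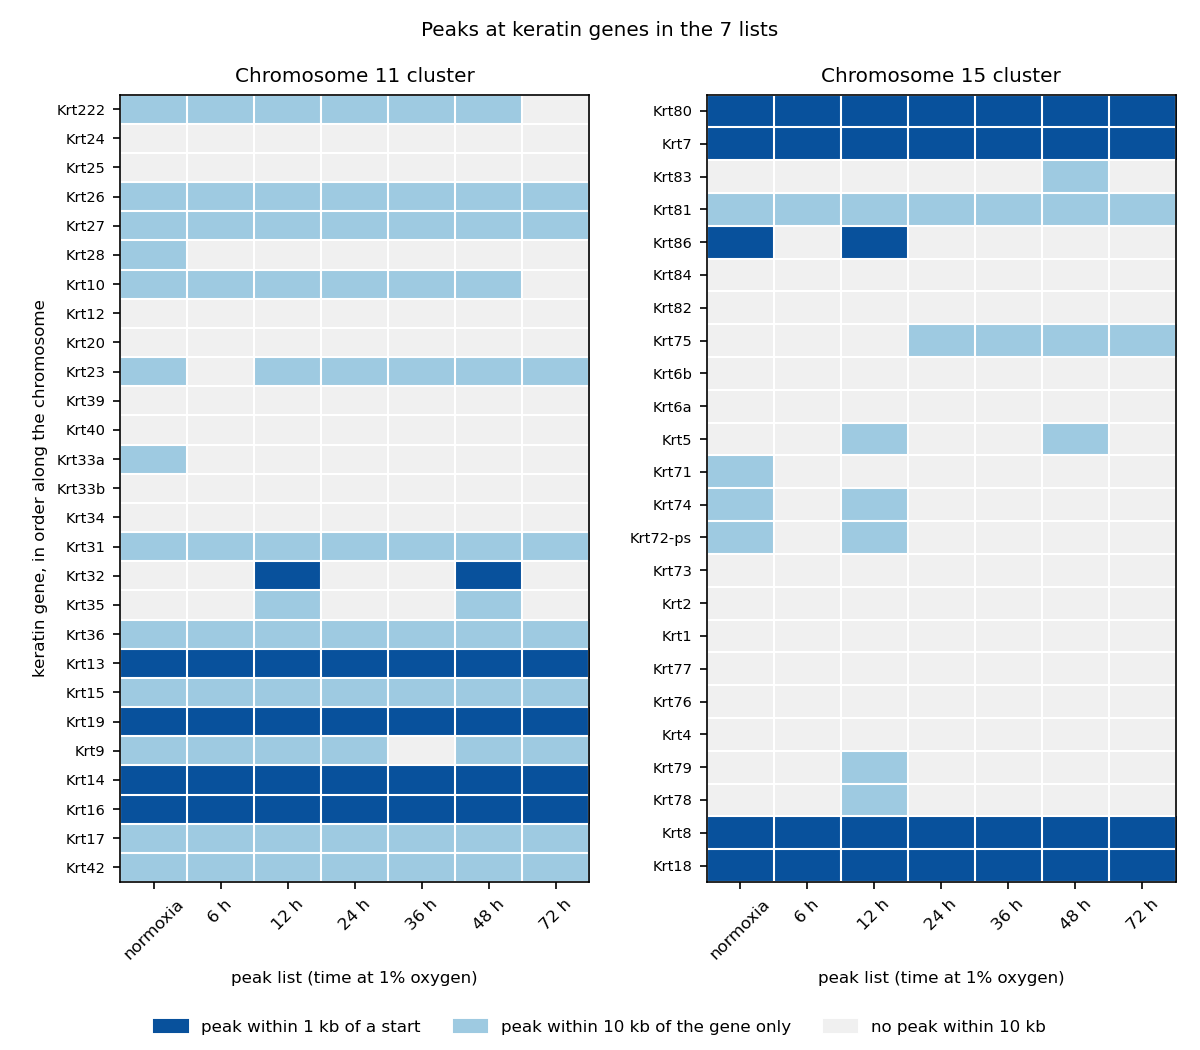
Peaks at each of the 51 keratin genes (rows, in chromosome order) in the 7 lists (columns, normoxia and hours at 1% oxygen): dark blue for a peak within 1 kb of a start, light blue for a peak within 10 kb of the gene only, grey for none. The 8 members with a promoter peak in all 7 lists are the full dark rows, and the 18 members with no peak within 10 kb are the full grey rows.

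The wider window of 10 kb around the gene body contains the promoters, so it could not hold fewer members with a peak. Within 10 kb of the gene body, 33 members had a peak in at least 1 list, 16 had one in all 7 lists (31.4%, against 67.1% of all protein-coding genes) and 18 had none in any list (35.3%, against 17.9%). The members with a peak numbered 26 in normoxia (51.0%, against 74.1%), 19 at 6 h (37.3%, against 70.5%) and 28 at 12 h (54.9%, against 78.1%). There were 21 at 24 h (41.2%, against 75.9%), 20 at 36 h (39.2%, against 74.3%), 25 at 48 h (49.0%, against 76.4%) and 19 at 72 h (37.3%, against 73.6%). The 12 h and 48 h lists, which were the longest over the whole genome, and normoxia had the highest counts. The 6 h list, which had the fewest peaks and the highest background, and the 72 h list had the lowest. How far list length and background entered these counts was not tested. A region can lie within 10 kb of 2 neighbouring genes, and both then counted.

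**Figure D2:**
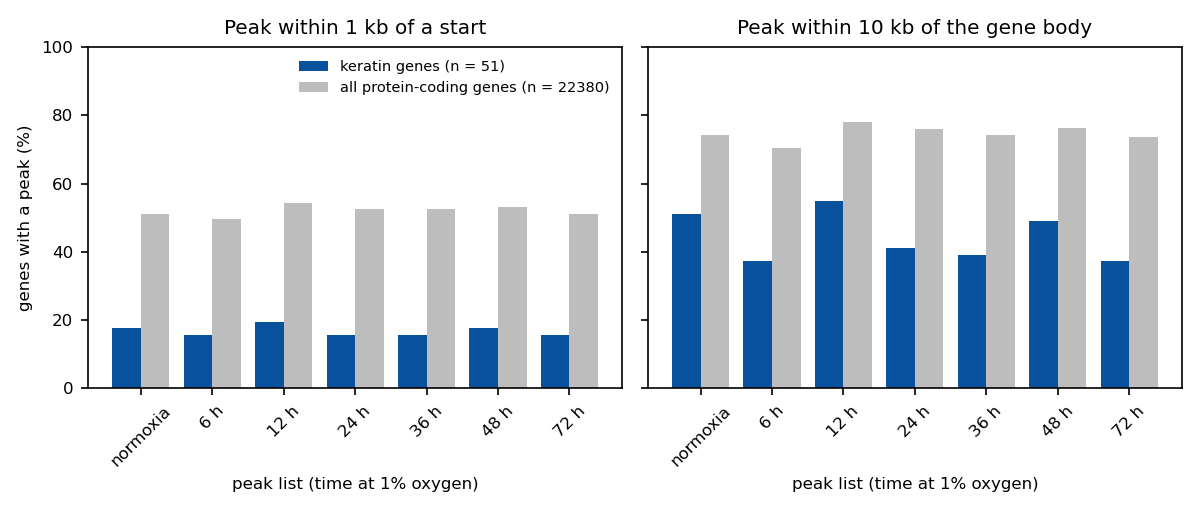
Share of genes with a peak (percent, from 0 to 100) in each list, for a peak within 1 kb of a start (left) and within 10 kb of the gene body (right), with the 51 keratin genes in blue and all 22380 protein-coding genes in grey. The blue bar is the lower one in all 7 lists on both sides, between 15.7% and 19.6% on the left.

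The classes of keratins differed in how many members had a peak. Of the 6 simple epithelial keratins, 4 (Krt7, Krt8, Krt18 and Krt19) had a promoter peak in all 7 lists. Krt23 had a peak in 6 lists within 10 kb, and Krt20, an intestinal and urothelial keratin, had none. Of the 3 basal keratins, Krt14 had a promoter peak in all 7 lists. Krt15 had a peak within 10 kb in every list, but that peak was the Krt19 promoter. Krt5, the partner of Krt14, had one region 3134 bp upstream of its start, found at 12 h and 48 h alone.

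Among the 4 keratins of wound and activated epidermis, Krt16 had a promoter peak in all 7 lists and Krt17 had peaks within 10 kb in all 7, while Krt6a and Krt6b had none. The regions of all 7 lists near Krt17 were the Krt16 promoter and the one between Krt16 and Krt17, and Krt17 had no promoter peak. Of the 8 suprabasal epidermal keratins, Krt80 had a promoter peak in all 7 lists, Krt9 and Krt10 had a region in 6 lists, Krt78 and Krt79 shared regions at 12 h alone, and Krt1, Krt2 and Krt77 had none. Of the 4 mucosal and corneal keratins, Krt13 had a promoter peak in all 7 lists, and Krt4 (the partner of Krt13), Krt12 (the keratin of the cornea) and Krt76 had none. The same window thus held peaks at one partner and few or none at the other in the pairs of Krt14 with Krt5, Krt13 with Krt4 and Krt10 with Krt1. In the pair of Krt8 with Krt18, both partners had promoter peaks in all 7 lists. Neither kept one in every list once a −log10 q of at least 5 was required. Krt8 fell short at 36 h alone, where its promoter peak had a −log10 q of 4.78. Krt18 fell short in normoxia, at 24 h and at 72 h, and its normoxic peak had a −log10 q of 2.42.

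The keratins of the hair follicle had no promoter peak that was in every list. Of the 9 members of the inner root sheath and companion layer, none had a promoter peak in any list, 7 had a peak within 10 kb in at least 1 list, and Krt26 and Krt27 had one in all 7. Of the 14 hair shaft keratins, none had a promoter peak in all 7 lists, 2 had one in 2 lists each, 8 had a peak within 10 kb in at least 1 list, 3 of them (Krt31, Krt36 and Krt81) in all 7, and 6 had none. Of the remaining 3 members, Krt42 had a peak within 10 kb in all 7 lists, Krt222 in 6 and Krt24 in none. The region near Krt222 was the promoter of another gene, Smarce1.

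The peaks were unevenly spread along the clusters. On chromosome 15, whose cluster is 685 kb long, no list had a peak from chr15:101603527-101769424, a stretch of 165.9 kb that holds all or part of Krt72-ps, Krt73, Krt2, Krt1, Krt77, Krt76, Krt4 and Krt79. Another 132.3 kb without a peak, chr15:101414023-101546318, covered Krt6b, Krt6a and Krt5. Among all gaps between neighbouring regions of the genome, 1.43% were as long as the first and 2.11% as long as the second. On chromosome 11, a stretch of 108.4 kb without a peak held 18 keratin-associated protein genes and no keratin gene, and another of 81.4 kb held Krt23, Krt39 and Krt40. The start of Krt1 lay 77691 bp from the nearest region of any list, the farthest of all members.

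**Figure D3:**
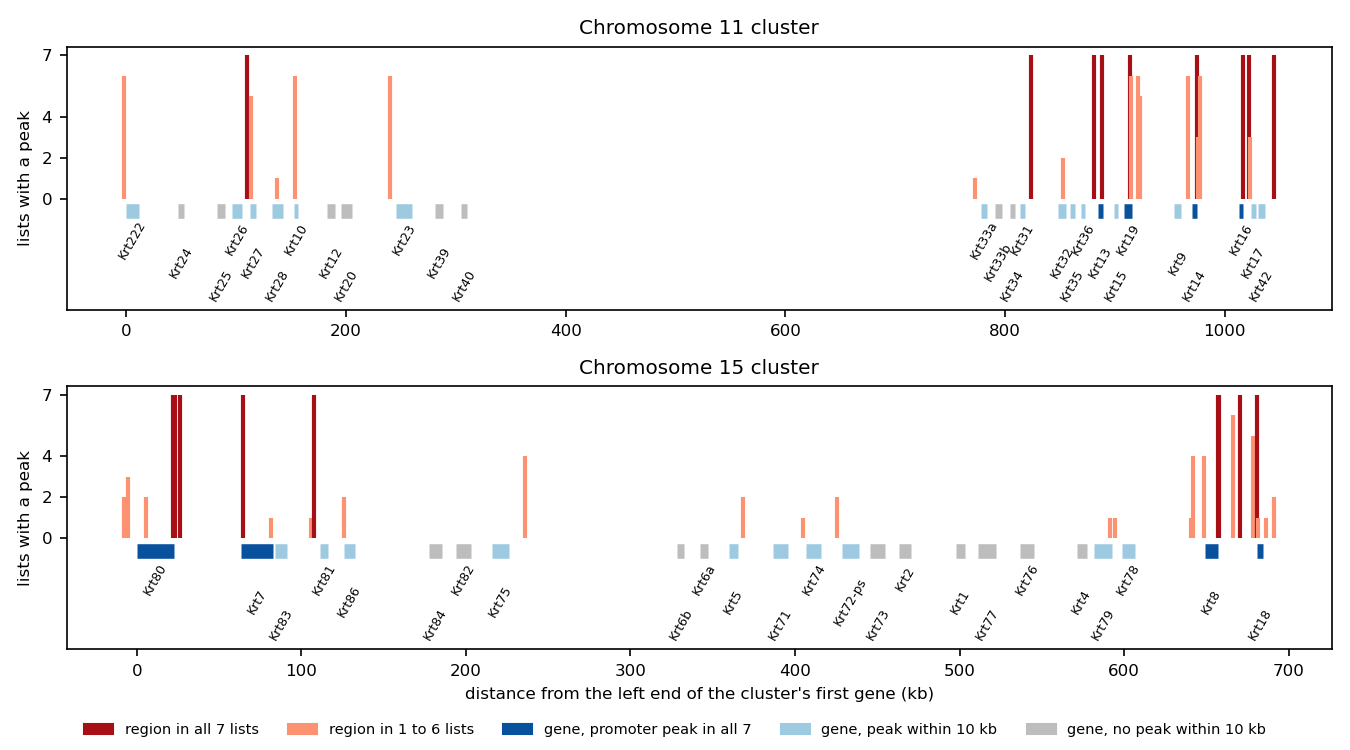
The 2 keratin clusters drawn to scale, with the distance from the left end of the first gene in kb on the horizontal axis. Blocks are keratin genes, and each vertical line is one of the 53 regions within 10 kb of them, as high as the number of lists that held it. The middle of the chromosome 15 cluster, from Krt84 to Krt78, holds no region of all 7 lists, and the space between Krt40 and Krt33a on chromosome 11 holds the genes of the keratin-associated proteins, where regions were not drawn.

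Near-identical keratin genes can hide reads, since a read that fits several places is lost by the authors' mapping quality filter. The share of 75-base stretches, the length of a read, that occur more than once in the genome was 24.0% in the promoter of Krt6a and 22.5% in that of Krt6b, and 12 members were over 5% in promoter or body. At Krt1 and Krt4, which also had no peak, it was 0.0%. The Krt16 promoter, which carried the strongest keratin peak, was repeated over 12.8% of its length, and the Krt86 promoter over 14.7%. Whether repeats kept peaks from being called at Krt6a and Krt6b was not tested.

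The 8 promoters open in every list were compared by their fold in each list, always from normoxia through 6, 12 and 24 h to 36, 48 and 72 h of hypoxia. The Krt16 promoter, chr11:100110194-100110920 with its summit 282 bp upstream of the start, stood at 15.3, 10.0, 12.7, 12.9, 9.33, 13.3 and 12.4. It was the strongest region of all keratin genes in 6 of the 7 lists, and at 36 h the Krt31 region stood above it. Krt16 is a stress keratin, low in resting skin and high at wound edges. Its fold was highest in normoxia and lowest at 36 h, with 53 and 41 reads at those summits.

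The promoter of Krt19, the smallest keratin and one of simple epithelia, lay at chr11:100007086-100007934. Its fold was 10.4, 5.58, 7.49, 7.51, 5.76, 7.74 and 7.66, highest in normoxia. The promoter of Krt13, a keratin of the oral and esophageal lining, had 8.57, 5.64, 9.28, 8.43, 6.52, 10.5 and 5.68 at chr11:99981648-99982312. Here the highest list was 48 h, and by deposited fold normoxia stood behind 48 h and 12 h. By fold relative to the list median, normoxia (1.05) stood above 12 h (1.03). The promoter of Krt14, which partners Krt5 in basal cells, had 6.07, 4.96, 8.68, 6.68, 5.36, 6.01 and 4.81 at chr11:100068778-100069337. The 12 h list was the highest, with 41 reads at the summit against 16 to 27 in the others.

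Among promoter regions of all 7 lists, those on chromosome 15 had median folds of 3.36 to 4.95 and those on chromosome 11 of 6.01 to 12.7, although values in single lists overlapped. The Krt8 promoter, chr15:101834572-101835173, had 5.44, 3.46, 3.76, 5.51, 3.44, 4.80 and 6.20, and 9.30% of its 75-base stretches were repeated. A second region just upstream of that one reached into the promoter window, but its summit lay 1179 bp from the start and its 36 h peak outside the window. This second region had 7.12, 5.42, 4.95, 3.56, 4.21, 5.41 and 3.56. By deposited fold the first of these neighbours was highest at 72 h and the second in normoxia, while by fold relative to the list median the second was highest at 6 h, at 0.926 against 0.869 in normoxia. Krt18, the partner of Krt8, had 3.08, 4.25, 4.42, 4.17, 5.08, 3.79 and 3.02 at its promoter, chr15:101858351-101858869. Krt7, a keratin of ducts and glands, had 3.08, 4.70, 7.20, 5.35, 4.35, 3.82 and 4.75 at chr15:101242243-101243125. At Krt7 normoxia was the lowest of the 7 lists on the deposited and relative scales. At Krt18 it was next to the lowest by deposited fold and the lowest by relative fold, at 0.376 against 0.439 at 72 h. Both summits had 12 reads in normoxia.

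Krt80, a keratin found in many epithelia that mature, had promoter peaks on both sides of its start. The upstream one, chr15:101200499-101201250, stood at 4.84, 3.10, 3.59, 3.77, 4.35, 2.99 and 3.19, and the one in an intron, chr15:101199496-101200281, at 3.75, 2.92, 3.36, 3.14, 3.25, 4.20 and 4.86. Another region of all 7 lists, 3558 bp upstream, ranged only from 3.46 to 4.29. Normoxia was the highest list at the upstream promoter peak and 72 h was the highest at the intronic one.

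The other members with a promoter peak were hair shaft keratins, and each had it in 2 lists. At Krt32 the region chr11:99946669-99947056 had a fold of 4.79 at 12 h with 15 reads and 3.41 at 48 h with 11 reads, and no peak in the other 5 lists. From its strength where it was found, 6.86 reads would be expected in normoxia and 8.18 to 10.6 in the other hypoxia lists, against lowest called summits of 5 reads and of 7 to 11 reads. The summit lay in an exon of Gm11571, which overlaps Krt32. At Krt86 the region chr15:101303477-101303819 had 3.63 in normoxia with 6 reads and 5.39 at 12 h with 17 reads, where 8.64 to 12.8 reads would be expected in the other lists. The expected reads at Krt86 were above the lowest called summit in each of those lists but 6 h. At 12 h, where both promoters had a peak, the smallest summit called had 8 reads.

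Of the 53 regions near keratin genes, 18 were in all 7 lists, a share of 34.0% against 33.2% of all regions. On each chromosome there were 9 of them. The keratin regions were found in normoxia in 34 cases (64.2%, against 53.2% of all regions), at 6 h in 28 (52.8%, against 43.2%) and at 12 h in 44 (83.0%, against 73.8%). They were found at 24 h in 31 (58.5%, against 64.1%), at 36 h in 29 (54.7%, against 55.6%), at 48 h in 40 (75.5%, against 66.5%) and at 72 h in 29 (54.7%, against 56.9%). The keratin share was above that of all regions in normoxia and at 6, 12 and 48 h, and below it at 24, 36 and 72 h.

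Among the 18, the regions with the 10 highest median folds included 5 already described (the promoters of Krt16, Krt13, Krt19 and Krt14, and the second Krt8 region). The Krt31 region, chr11:99916853-99918026, lies 5319 bp upstream of that hair shaft gene and within an intron of Gm11571. Its fold was 11.9, 9.13, 10.5, 11.8, 12.5, 12.3 and 10.7, with 36 to 57 reads at the summit. The Krt13 region, chr11:99974466-99975442, lies between Krt13 and Krt36, with 11.8, 9.14, 12.5, 11.2, 8.91, 13.2 and 5.68. The 72 h list was the lowest, with 19 reads where the other lists had 35 to 63. The Krt26 region, chr11:99203009-99203842, lies upstream of a keratin of the inner root sheath and had 7.32, 8.30, 8.63, 8.71, 8.39, 8.06 and 3.98. It too was lowest at 72 h, with 13 reads against 23 to 36.

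The region between Krt16 and Krt17, 5709 bp upstream of Krt16 at chr11:100115630-100116337, had 10.9, 6.72, 10.3, 9.38, 6.94, 8.26 and 6.49. The Krt81 region, chr15:101285187-101286322, lies 8300 bp downstream of the start of that hair shaft gene and had 7.87, 6.03, 6.98, 9.03, 5.22, 7.40 and 5.68. The first was highest in normoxia and the second at 24 h. The other 8 of the 18 regions had median folds under these. They lie at Krt42, Krt80 (3 regions), Krt7, Krt8 and Krt18 (2 regions), and their folds ran from 2.92 to 8.18.

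**Figure D4:**
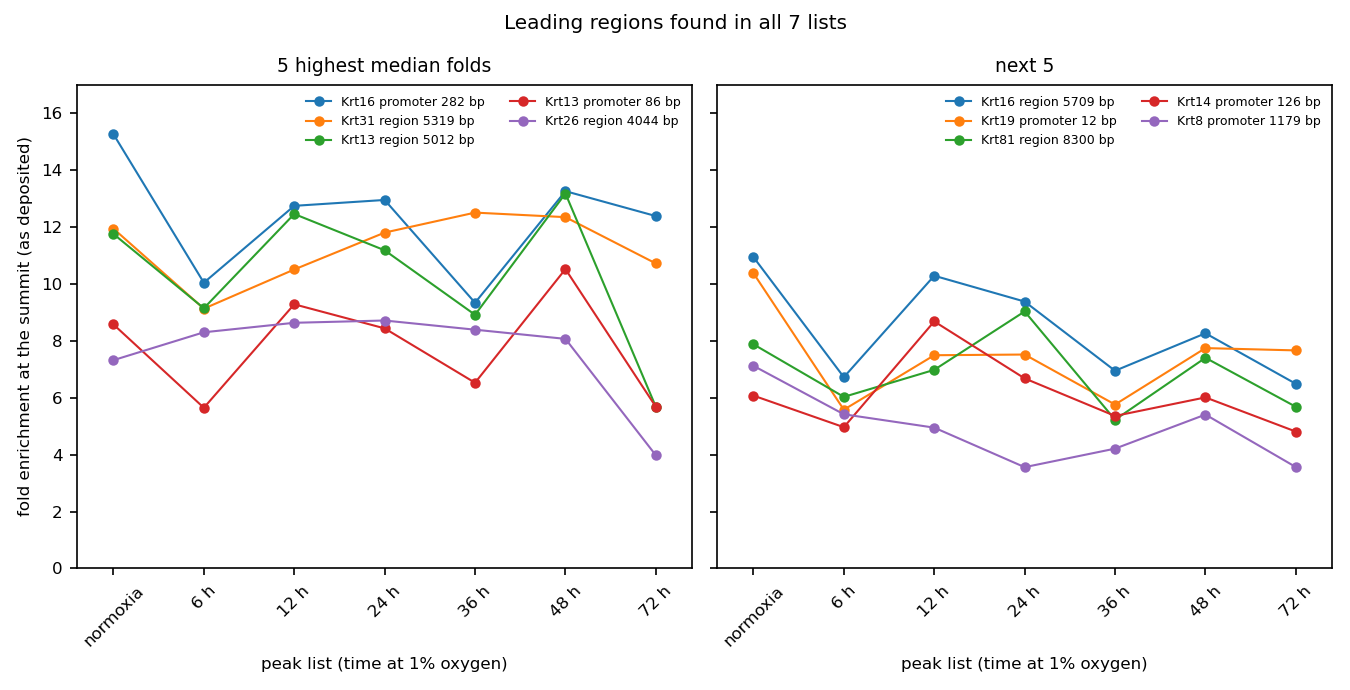
Fold enrichment at the summit, as deposited and on a linear axis from 0, for the 10 regions of all 7 lists with the highest median fold, by list. Each line is a region named by its gene and the distance of its summit from the gene's start, and each point is 1 pooled list with no error. The Krt16 promoter is the highest line in 6 of 7 lists, and the Krt13 and Krt26 regions of the left panel have their lowest points at 72 h.

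The keratin regions as a set were compared between normoxia and hypoxia on 3 scales. With the deposited fold, normoxia stood above the median of the 6 hypoxia lists in 15 of the 18 regions, against 62.9% of all regions in 7 lists, the exceptions being Krt26, Krt7 and the Krt18 promoter. After each fold was divided by its list's median over regions of all 7 lists, this held for 12 of 18, against 51.6%, and the Krt31, Krt14 and intronic Krt80 regions had changed sides. With summit reads over the genome background it held for 18 of 18, and for 93.0% of all regions, since the normoxic background was the lowest. The median relative fold of the 18 regions was 0.881 in normoxia, 0.888 at 6 h, 0.818 at 12 h and 0.691 to 0.703 from 24 h on. The median keratin region was thus below the median shared region in every list. Normoxia was the highest of the 7 lists in 6 of the 18 regions on the deposited scale and in 5 on the relative scale, where 6 h was also the highest in 5 after 0 on the deposited scale, while 72 h was the lowest in 7 and in 5.

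Regions that differed between lists were counted by the same rules over the genome. Of the 53 regions, 19 were in 1 or more hypoxia lists and not in normoxia (35.8%, against 46.8%), 4 on chromosome 11 and 15 on chromosome 15. Another 16 were in normoxia and missing from at least 1 hypoxia list (30.2%, against 20.0%), 10 on chromosome 11 and 6 on chromosome 15. No keratin region was in all 6 hypoxia lists and absent from normoxia, against 1.50% of all regions. In 3 or more hypoxia lists and not in normoxia there were 7 (13.2%, against 14.2%), and in normoxia and missing from 3 or more hypoxia lists there were 6 (11.3%, against 9.77%). A single list held 11 of the regions (20.8%, against 26.6%).

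The region 7015 bp upstream of Krt19, chr11:100016804-100017472, was in more hypoxia lists than the other 6 of this kind. It had no peak in normoxia or at 6 h, and folds of 4.38, 4.22, 3.11, 5.53 and 5.83 from 12 h to 72 h, with 16, 11, 9, 21 and 23 reads. Its strength elsewhere would give 8.0 reads in normoxia, where summits of 5 reads were called, and 9.54 at 6 h, where none under 11 was called. It lies beside another region, 5344 bp upstream of Krt19, that had a fold of 5.19 in normoxia and was missing at 6 h alone.

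The region upstream of Krt75, a keratin of the companion layer, lay at chr15:101413619-101414022. It had no peak in normoxia, at 6 h or at 12 h, and folds of 5.27, 7.14, 3.69 and 4.26 at 24, 36, 48 and 72 h. Here 9.75 reads would be expected in normoxia, 11.6 at 6 h and 19.5 at 12 h, and the smallest summits called in those lists had 5, 11 and 8 reads. The 12 h list, which was the longest, was therefore without a peak at a site where the 4 later lists had one. The printed sequence carried 1 AP-1 motif. The wider window used for the motif counts, 100 bp to either side of the summit, also held a HIF motif.

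The other 5 regions of this kind were weaker or more scattered. At Krt14, 976 bp upstream and beside the promoter peak, folds were 3.48, 3.49 and 4.88 at 12, 48 and 72 h. At Krt17, 5153 bp downstream of its start and between Krt17 and Krt16, they were 4.32, 3.81 and 3.28 at 24, 48 and 72 h. Downstream of Krt80 they were 3.78, 3.87 and 3.80 at 12, 24 and 48 h. The last pair lay downstream of Krt8, one with 3.31, 6.46, 3.50 and 3.95 at 6, 12, 24 and 48 h and the other with 3.76, 4.86, 4.04 and 2.84 at 6, 12, 36 and 48 h. All 5 had a peak at 48 h, and 2 of them had one at 72 h.

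Of the 6 regions that normoxia held and at least 3 hypoxia lists lacked, 4 were in normoxia alone (7.55% of the 53 regions, against 2.75% of all regions). They lay in an intron of Krt28, an inner root sheath keratin (fold 4.15, 7 reads), 9020 bp from the start of the hair keratin Krt33a (3.12, 5 reads), upstream of Krt71 (4.15, 7 reads) and 1702 bp upstream of Krt18 (4.92, 17 reads). The first 3 were among the smallest summits of that list. At the Krt18 region, 20.3 to 34.0 reads would be expected in the hypoxia lists, at Krt28 and Krt71 8.35 to 14.0, and at Krt33a 5.96 to 10.0, where the lowest summits called had 7 to 11 reads. These expectations only rescale the single normoxic summit by which each region was picked, so they can be too high. The lowest summit called in a list is also not its limit at each local background. Whether accessibility was lost at these sites was not tested. The Krt72-ps region, chr15:101603152-101603526, had the highest fold of the 6, at 7.27 in normoxia with 13 reads, 3.89 at 12 h with 12 reads, and none in the other 5 lists. The sixth was the Krt86 promoter. Krt72-ps is annotated as protein-coding although its symbol names a pseudogene.

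A region in Krt10, which pairs with Krt1 in the suprabasal epidermis, did not fall under these rules and was chosen after its values were seen. It lies at chr11:99247126-99247720, in an exon 3317 bp downstream of the start, and its fold was 12.5 in normoxia and then 5.41, 8.08, 7.38, 4.35 and 3.69 from 6 h through 48 h. At 72 h it had no peak. Reads at the summit were 24, 22, 26, 20, 13 and 12, and 17.5 would be expected at 72 h, where summits of 9 reads were called. Relative to the list's median shared region the fold was 1.53 in normoxia and under hypoxia 0.925, 0.90, 0.851, 0.583 and 0.448 in the same order. On both scales normoxia was the highest and 48 h the lowest of the lists with a peak. Its sequence held 2 SP/KLF motifs.

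**Figure D5:**
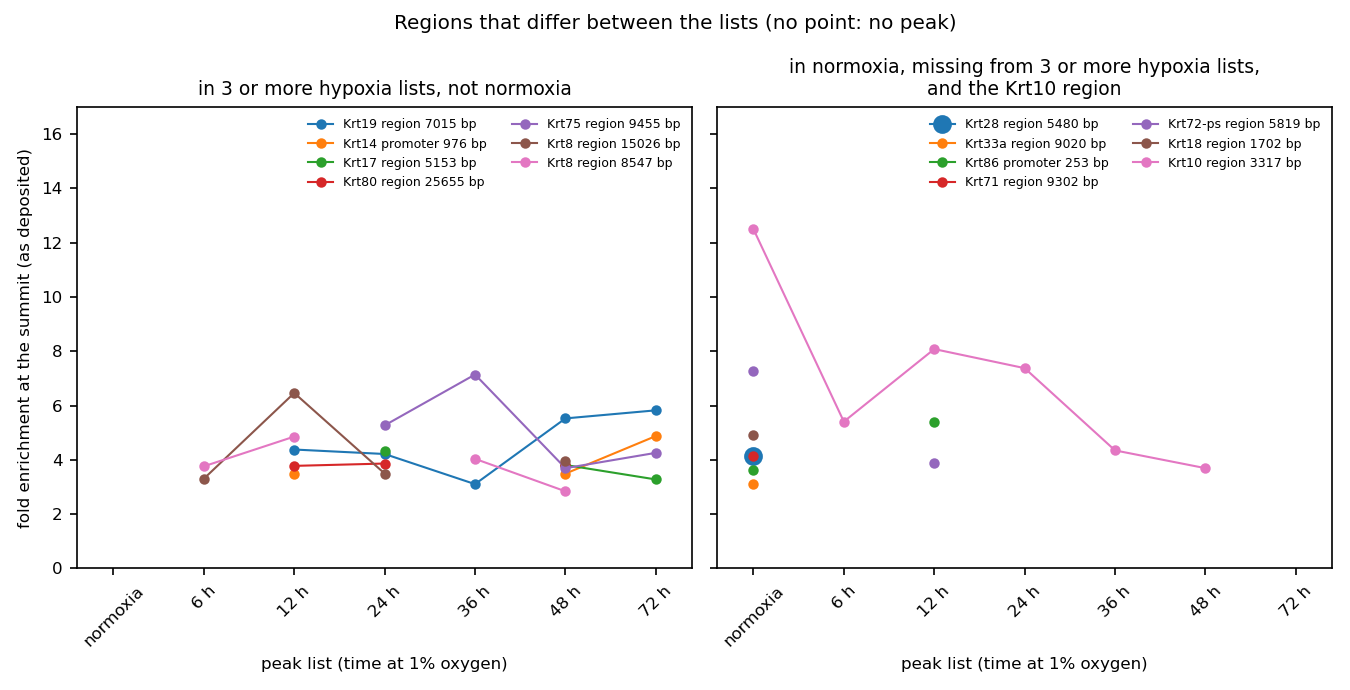
Fold enrichment as deposited, on a linear axis from 0, by list, for the 7 regions in 3 or more hypoxia lists and not in normoxia (left) and for the 6 regions in normoxia and missing from 3 or more hypoxia lists with the Krt10 region (right). A missing point is a list without a peak, and the Krt28 and Krt71 points coincide at 4.15. The Krt19 region runs from 12 h to 72 h on the left, and the Krt10 line goes from 12.5 in normoxia to 3.69 at 48 h on the right.

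The strongest summit of each region was taken with 100 bp to either side, and both strands were searched for motifs. AP-1 (TGANTCA), bound by Jun and Fos proteins, was in 24 of 53 keratin regions (45.3%, against 37.5% of all regions) and in 11 of the 18 regions of all 7 lists (61.1%, against 44.1% of all regions in 7 lists). HIF (ACGTG or GCGTG) was in 13 (24.5%, against 23.6%), RUNX (TGTGGT) in 10 (18.9%, against 20.7%), TEAD (GGAATG) in 8 (15.1%, against 16.5%) and SP/KLF (GGGCGG) in 8 (15.1%, against 11.3%). The p63 motif was in 3 (5.66%, against 1.85%) and FOX (TGTTTAC) in 2 (3.77%, against 3.05%). Neither was in any of the 18 regions of all 7 lists, against 1.56% (p63) and 2.77% (FOX) of all regions in 7 lists. The p63 regions near Krt33a and Krt79 were each in 1 list, and the one near Krt14 was in 6. C/EBP (TTGCNNAA, against 8.73%) and GRHL (AACNGGTT, against 1.72%) were in none of the 53. Of the 10 leading regions of all 7 lists, 9 carried AP-1, the Krt19 promoter being the exception. These 10 were picked by their fold, and the share among equally strong regions of the genome was not computed.

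A TATA box, searched as TATAAA on the gene strand within 50 bases upstream of any start, was found at 18 of the 51 members (35.3%), against 4.85% of all protein-coding genes. Of the 8 members with a promoter peak in all 7 lists, 1 had it, namely Krt16. Of the 41 members with no promoter peak, 16 had it (39.0%), among them Krt10, Krt17, Krt71 and 5 genes of the hair shaft. Over all protein-coding genes whose promoter had a peak in every list, the share was 3.74%.

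Proteins that tie keratin filaments to junctions were counted in the same way. Of 12 such genes, 11 were found in the annotation, and 8 had a promoter peak in all 7 lists, beside 46.6% of all protein-coding genes. They were the desmosomal plaque genes Dsp, Jup, Pkp2 and Pkp3, the plakin genes Plec, Ppl and Dst, and Itgb4, an integrin of the hemidesmosome. Evpl (envoplakin) had a promoter peak at 36 h alone, Tchp (trichoplein, which binds keratin filaments) in normoxia and at 6, 12 and 72 h, and Pkp1 in no list. Thus most linkers had promoter peaks while most keratins did not.

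Of 18 genes of transcription factors known to act on keratin genes, 8 had a peak at the promoter in all 7 lists: Klf4, Klf5, Grhl1, Grhl2, Elf3, Cebpa, Tcfap2a and Tcfap2c. This is close to the 46.6% of all protein-coding genes. None of the lists had a promoter peak for Trp63, the p53 relative that defines basal cells, for Grhl3, or for the hair follicle factors Hoxc13, Foxn1, Dlx3 and Msx2. Within 10 kb of the gene body, Trp63 and Foxn1 had a peak in all 7 lists, Grhl3 in 4, and Hoxc13, Dlx3 and Msx2 in none. Lef1, a Wnt effector of the follicle, had a promoter peak in every hypoxia list, 6 in all, but not in normoxia. Ovol1 and Cebpb lacked a promoter peak at 72 h alone, and Ehf at 24 h and 72 h. Each of Ovol1, Cebpb and Ehf had a peak within 10 kb in all 7 lists.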

How the data were processed

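Bulk ATAC-seq of 4T1 cells in 14 samples was deposited as 7 peak lists. Paired reads of 75 bases had been aligned to mm9 by the authors (methods and submitters' notes) with Bowtie2 2.1.0. They then removed duplicates with Picard 1.79, merged replicates and called narrow peaks with MACS2 (version not given in the sources used here). The fold was deposited as a ratio, reads at the summit over the local background of the same list, with a read added to both. Significance was deposited in a −log10 p column and a −log10 q column, one p-value and one q-value for each summit, as written by MACS2. The lists reach down to a q of 0.05, looser than the threshold in the methods.

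Several summits of a peak were reduced to the one with the highest −log10 q. Whole summit reads were solved from fold and −log10 p, with all summits solved. Expected reads at a missing peak were the median, over lists with the peak, of its reads relative to the list's shared regions, times the list's own median. Where only 1 list had the peak, they rest on that list alone. Promoters were 1 kb on each side of any start in GENCODE vM1 (NCBIM37). Overlaps, regions and read numbers were tested on simulated data with planted answers.

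Members and lists were chosen with earlier results of these data known. Members with a promoter peak were named. Values in every list were given for members whose promoter peak was in some lists only, for the 10 highest median folds among regions of all 7 lists, and for regions in 3 or more hypoxia lists and not normoxia or the reverse. Sequences were printed for class leaders and leading differing regions. No test was run, since each group is 1 pooled list. Scripts used Python 3.11.15 with scipy 1.17.1, numpy 2.4.6, pandas 2.3.3 and matplotlib 3.10.9. Alternatives were stricter peaks (−log10 q of 2 and 5, or the 20000 strongest), other distances, merging within 200 bp, other fold scales and leaving out the 6 h list. Leaving out members with repeated sequence was chosen after seeing the data.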

Additional observations from a re-analysis of the deposited data

How the results depend on the processing

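When each list was limited to its 20000 strongest peaks, the members with a peak within 10 kb numbered 13 in any list and 3 in every list (Krt31, Krt16 and Krt17), and those with a promoter peak 5 in any list and 1 in every list (Krt16). The regions then numbered 11, of which 2 were in all 7 lists, 3 were in hypoxia lists and not in normoxia and 6 were in normoxia and missing from a hypoxia list. At a −log10 q of 5 or more, 5 members kept a promoter peak in every list (Krt13, Krt14, Krt16, Krt19 and Krt80), and 11 regions were in all 7 lists. Fewer peaks are counted under both settings by construction. Counting only peaks that overlap the gene body gave 13 members in any list and 7 in every list, and promoters of 5 kb gave 17 members with a peak in any list. The shares of all protein-coding genes and of all regions are not given for these settings. Whether keratin genes lost more peaks than other genes under them cannot be told here. The other settings stayed within 1.5 times the reported counts: −log10 q of 2 or more (8 of 8 results), without the 6 h list (8 of 8), merging within 200 bp, 5 kb of the gene body, the most upstream start only and the other fold scales. So did leaving out the 12 members with repeated sequence, chosen after seeing the data, which left 6 promoters with a peak in every list. Peaks pooled over replicates limit every value, since no spread is known, and sites with about 5 to 11 reads lie at the lists' limits of detection. No paired analysis was possible because each list pools both replicates of its group.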
